A study of Mus musculus with 16 samples.

Results

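The cytosolic ribosomal protein genes are the genes whose protein products, together with ribosomal RNA, make up the ribosome that translates nuclear messages in the cytoplasm. They were taken by symbol: every gene listed at both days whose symbol is Rpl or Rps followed by a digit, Rplp0, Rplp1, Rplp2 or Rpsa, without the S6 kinases, Rps19bp1 and entries marked as pseudogenes by -ps. This gave 88 genes of the 19964 listed at both days, 51 of the large subunit and 37 of the small subunit. By the GENCODE M21 annotation, 83 are protein-coding, 3 are processed pseudogenes and 2 are transcribed processed pseudogenes. In the text, 77 of them are called main copies, and the other 11 are paralogs or retrocopies, which are intronless copies made from a message.

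Poly(A) RNA came from organoids of mouse jejunal epithelium, on a C57BL/6 background with the genotype Villin-CreERT2; Hnf4aflox/flox. In this line a Cre recombinase that needs 4-hydroxytamoxifen (4OHT) is driven by the promoter of villin, a protein of the intestinal epithelium, and the gene for the transcription factor HNF4A carries lox sites. All groups carry these alleles, the controls included. The groups were DMSO (vehicle) and 4OHT, each at day 2 and at day 4, with 4 replicates a group and 16 libraries in all. 4OHT was given at 0.5 µM for 24 h and the organoids were then split. The protocol counts the harvest at day 4 from the last passage and says nothing of day 2. No group without the Cre or the lox sites was analysed here, so the effects of 4OHT, of Cre activity and of the loss of HNF4A cannot be told apart. Whether a replicate stands for an animal, a culture or a preparation is not in the labels, and p-values reflect only how these libraries scatter, which can be technical.

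Ribosomal proteins are made in matched amounts and assembled with ribosomal RNA in the nucleolus, with the help of many biogenesis factors that do not stay on the ribosome. Their messages begin with a run of pyrimidines, the 5′ terminal oligopyrimidine (TOP) tract, through which the mTORC1 pathway controls their translation. Some free ribosomal proteins bind MDM2, the ubiquitin ligase of p53, and the dividing cells of the intestinal crypt are known for a high demand for ribosomes.

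Hnf4a itself was measured at 999.8, 1037, 1051 and 985 CPM (counts scaled to a library total of 1000000) in the 4 DMSO libraries of day 2, in replicate order, and at 518, 532, 505 and 479 CPM in the 4 4OHT libraries. At day 4 it was 961, 978, 970.4 and 972 CPM with DMSO and 472, 493, 465 and 454 CPM with 4OHT. The log2 fold changes were -0.99 ± 0.05 (SE) and -1.04 ± 0.05, and no library went against its label. The counts cover the whole gene, and the labels do not say which part of it lies between the lox sites. Library totals over the genes listed at both days ran from 63791712 to 93322956 counts. Mitochondrially encoded genes took 1.55% to 3.08% of the counts. Summed markers of crypt base stem cells (13 genes) were lower with 4OHT, at 1563 to 1746 CPM against 2064 to 2404 CPM at day 2 and 3442 to 3960 CPM against 4680 to 5118 CPM at day 4. Summed goblet cell markers (10 genes) were higher, at 7454 to 9564 CPM against 5000.2 to 5760.5 CPM at day 2 and 7416 to 9383 CPM against 4139 to 5308 CPM at day 4. Summed Paneth cell markers (14 genes) were 1709.7 to 1901 CPM against 2077 to 2693 CPM at day 2, and 2464 to 2681 CPM against 2764 to 3426 CPM at day 4. Summed enterocyte markers (12 genes) were 4878 to 6868 CPM against 6769 to 8913 CPM at day 2, where 9 of the 12 fell, and 9069 to 12246 CPM against 9646 to 10561 CPM at day 4. Markers of stromal cells stayed at 6.28 to 9.55 CPM in sum, and those of immune or endothelial cells at 4.97 to 9.64 CPM. In such bulk RNA, fewer cells of a type and less RNA per cell cannot be told apart, and the part of these cell types in the results on ribosomal proteins was not tested.

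Most of the ribosomal protein genes belonged to the most abundant messages of the organoids. Rplp0, the base of the acidic stalk of the large subunit, had the highest mean count at 2551 CPM over the 16 libraries, followed by Rpl4 at 2065 CPM, Rpl8 at 1942 CPM, and Rps2 and Rpsa of the small subunit at 1834 and 1816 CPM. Per kilobase of annotated transcript the order changed. Rplp1 of the stalk came first at 2669 CPM per kb and Rps12 at 2636 CPM per kb, before Rpl8 at 2282, Rplp0 at 1878 and Rps2 at 1838 CPM per kb. The lowest main copies were Rpl24 at 231 CPM per kb and Rps20 at 185 CPM per kb. The annotated transcript of Rps20 is 3706 bases long, far longer than its coding part of 119 codons needs, so its level per length is uncertain. Among the paralogs, Rpl36al, Rps27l, Rpl22l1 and Rpl7l1 stood at 145, 133, 138 and 126 CPM. The retrocopies were far lower: Rpl37rt at 7.06 CPM, Rps3a2 at 4.07 CPM, Rps27rt and Rps3a3 at 2.03 CPM each and Rps12l1 at 0.123 CPM. Rpl3l, a heart and muscle form of Rpl3, and Rps4l were at 0.0274 and 0.0384 CPM, and these 2 did not pass the filter on low counts, which left 86 genes for the tests. Reads of a message and of its near-identical copy can be hard to separate, and how such reads were counted is not given in the sources used here, so the values of the retrocopies are uncertain.

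Because the TOP tract defines this class of messages, the letters around the annotated start are shown. Start windows are printed for 4 of the 7 main copies that fell at day 2, as given below, and for the 4 better expressed paralogs. Rpl30, Rpl36 and Rps20, which also fell, have no entry in the table used. They come from RefSeq on GRCm38.p6, hold 15 letters before the annotated start and 15 from it on, and run 5′ to 3′ on the gene's strand, so that they cover the upstream flank and the first bases of the first exon. Capitals mark a tract of C followed by at least 4 letters C or T, where the first C lies within 5 letters of the start. Where a gene had several annotated starts, a start with a tract was chosen for printing if there was any.
Rpl22: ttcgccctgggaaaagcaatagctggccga
Rpl34: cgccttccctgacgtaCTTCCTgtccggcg
Rpl36a: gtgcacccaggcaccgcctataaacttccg
Rps27: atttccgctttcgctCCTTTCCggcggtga
Rpl22l1: gtgcggcgcaagcccgttCTCTTCCCacgg
Rpl36al: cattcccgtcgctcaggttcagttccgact
Rpl7l1: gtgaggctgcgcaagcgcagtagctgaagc
Rps27l: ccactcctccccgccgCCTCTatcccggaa
The windows lie at chr4:152325711-152325740 (plus strand, Rpl22), chr3:130730384-130730413 (minus strand, Rpl34), chrX:134585639-134585668 (plus strand, Rpl36a), chr3:90213634-90213663 (minus strand, Rps27), chr3:28805493-28805522 (plus strand, Rpl22l1), chr12:69184053-69184082 (minus strand, Rpl36al), chr17:46782642-46782671 (minus strand, Rpl7l1) and chr9:66946071-66946100 (plus strand, Rps27l). Rps27 and Rpl34 hold such a tract, as do the paralogs Rps27l and Rpl22l1. Rpl22, Rpl36a, Rpl36al and Rpl7l1 hold none that begins within 5 letters of the start. In Rpl36a such letters begin farther on, near the end of the window. Of the main copies, 57 matched an entry, and 27 of them (47.4%) held the tract, against 23.9% of 9150 genes with a mean of at least 1 CPM. A gene was counted if any of its annotated starts held the tract, and the other letters below were counted likewise. The number of starts per gene was not compared between these sets. Annotated starts can lie off the real one by some bases. The lack of a tract therefore says only that none begins within 5 letters of the annotated start. In the 300 letters from 250 before the start to 50 after it, read on both strands, the letters CCGGAAG, bound by ETS factors such as GABPA, were found in 24 of the 57 main copies (42.1%), against 20.7% of the expressed genes. The letters AAGATGGCG, bound by YY1, were found in 3 of 57 (5.26%), against 3.78%. The HNF4 letters CAAAGTCCA were found in 1 of 57 (1.75%), against 0.601%, and CAAAGGTCA, which other nuclear receptors also bind, in 1 of 57 (1.75%), against 0.47%. A match is a description of the letters and not a measured site.

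Summed over the 88 genes, ribosomal proteins took 5.33% to 7.29% of all gene counts. At day 2 the share was 6.88%, 6.09%, 5.56% and 5.81% in the DMSO libraries, 6.09% ± 0.57 (SD, n = 4), and 5.33%, 5.41%, 5.47% and 5.73% with 4OHT, 5.49% ± 0.17. These groups overlapped, with DMSO replicate 3 below 4OHT replicate 4. At day 4 the share was 6.94%, 6.43%, 7.29% and 7.26% with DMSO, 6.98% ± 0.40, and 6.09%, 5.96%, 6.73% and 7.08% with 4OHT, 6.47% ± 0.53, and the groups overlapped again. In each treatment the mean share was higher at day 4 than at day 2. With 4OHT every day 4 library lay above every day 2 library, and with DMSO the first day 2 library lay above the second day 4 library. The counts of the small subunit relative to the large subunit barely moved: the ratio was 0.680 to 0.688 with DMSO and 0.674 to 0.677 with 4OHT at day 2, which did not overlap, and 0.679 to 0.689 against 0.668 to 0.685 at day 4, which did.

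**Figure D1:**
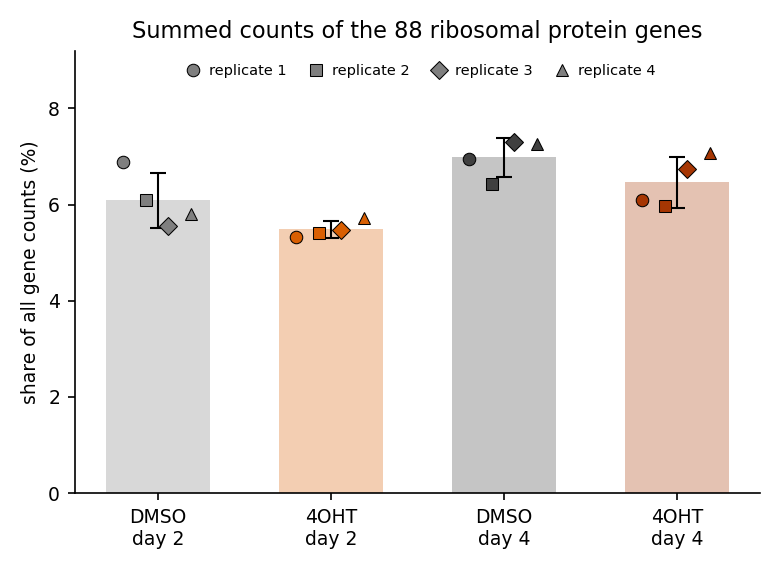
Share of all gene counts, in percent, taken by the 88 ribosomal protein genes in each library. Bars are group means, error bars are SD of 4 libraries, and symbols are the replicates. DMSO day 2 replicate 1, at 6.88%, stands above the other 3 of its group, at 5.56% to 6.09%.

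The main copies moved together from library to library, also within a group. In DMSO day 2 replicate 1, all 77 main copies lay above their own mean over the 16 libraries, with a median of 0.19 on the log2 scale. In 4OHT day 2 replicates 1 and 2, all 77 lay below it, with medians of -0.21 and -0.16. DMSO and 4OHT replicate 4 of day 4 both had all 77 above, with medians of 0.22 and 0.21, whereas 4OHT replicate 2 of day 4 had 75 below. The spread between replicates was therefore shared by the main copies and differed between groups. In deviations from the group mean, each main copy correlated with the mean of the others at a median r of 0.974 (lowest 0.823). Rpl7l1 had 0.676 with the mean of the main copies. The retrocopies of at least 1 CPM had less, from 0.368 for Rps27rt to 0.463 for Rps3a3. The median coefficient of variation of the main copies was 10.4% in DMSO day 2, 2.73% in 4OHT day 2, 6.63% in DMSO day 4 and 10.2% in 4OHT day 4. Over the 2349 genes with a mean of at least 100 CPM it was 5.51%, 3.50%, 4.85% and 6.61% in the same order. At day 4, the libraries numbered 4 had the lowest mitochondrial share of counts, 1.63% with DMSO and 1.55% with 4OHT, against 2.34% to 3.08% in the other 6, and they were among the highest for ribosomal proteins. With 4OHT at day 2, replicate 4 likewise had the lowest mitochondrial share of its group, 2.31%, and the highest ribosomal protein share, 5.73%. With DMSO at day 2 it was otherwise: replicate 1 had the highest mitochondrial share, 2.74%, and the highest ribosomal protein share, 6.88%. Over the DMSO day 2 libraries both shares ran in the same order. Whether RNA quality or culture state had a part in the spread between replicates was not tested.

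**Figure D2:**
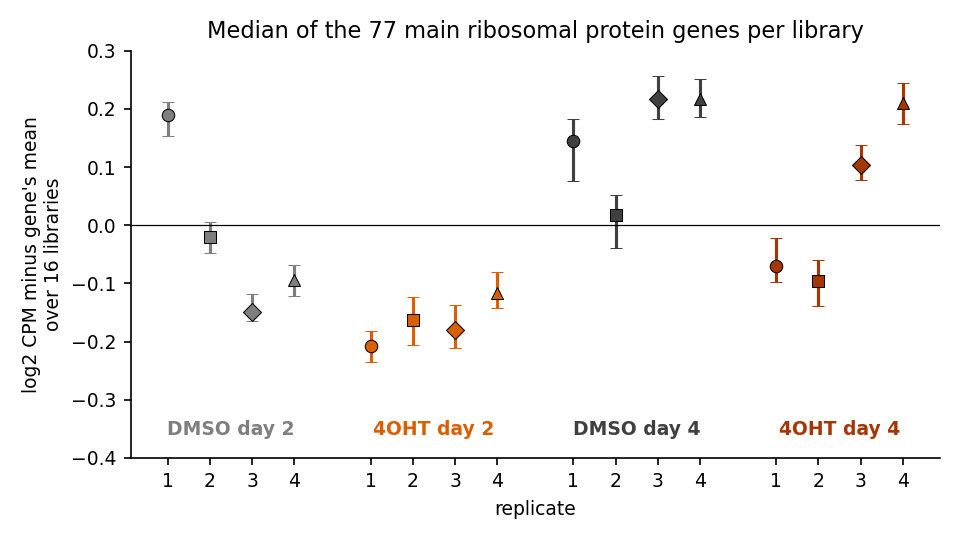
Median over the 77 main copies of log2 CPM minus the gene's own mean over all 16 libraries, by group and replicate. Error bars span the 25th to 75th percentile over genes. The bars are short against the distance between libraries, from -0.21 in 4OHT day 2 replicate 1 to 0.22 in DMSO day 4 replicate 3.

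At day 2, few ribosomal protein genes passed the test with 4OHT, while nearly all had small negative fold changes. Of the 86 genes tested, 7 fell and 0 rose at an adjusted p below 0.05 (edgeR quasi-likelihood test with Benjamini-Hochberg adjustment over all genes). Over all genes tested, 14.3% fell and 16.9% rose, so the members' share of calls was below the background. Yet 85 of the 86 fold changes were negative, with a median of -0.14 (log2), against a median of -0.0027 over all genes. Since the main copies moved together within groups, such counts of signs, here and in the other comparisons, are not counts of separate observations. Groups did not overlap for 18 genes, all lower with 4OHT, where 15.8% of all genes were lower and 16.6% higher without overlap. The values were close together: the main copies ranged from -0.21 to -0.07, with a median of -0.14 over 46 of the large and -0.15 over 31 of the small subunit. For 79 of the 86 genes the difference did not pass the test, and 40 had an unadjusted p below 0.05.

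The 7 genes that fell were Rpl36, Rps20, Rps27, Rpl36a, Rpl34, Rpl22 and Rpl30. Rps20, a protein of the small subunit head, was 791, 657, 628 and 649 CPM with DMSO and 572, 589, 584 and 604 CPM with 4OHT. Its groups did not overlap, and its log2 fold change was -0.20 ± 0.07 (adjusted p = 0.0366). Rps27, a zinc finger protein of the small subunit whose start tract is printed above, was 570.1, 483, 449 and 451 CPM and 414, 436, 415 and 422 CPM, a log2 fold change of -0.20 ± 0.07 (adjusted p = 0.046). All 4 4OHT libraries lay below all 4 DMSO libraries. Rpl34, also with a tract, was 489, 431, 414 and 413 CPM and 368, 377, 385 and 402 CPM, a log2 fold change of -0.18 ± 0.06 (adjusted p = 0.0359). Rpl22, an RNA-binding protein of the large subunit known for its role in T cell development, was 385, 336, 319 and 328 CPM and 293, 301, 300.5 and 314 CPM, a log2 fold change of -0.17 ± 0.06 (adjusted p = 0.0444). Neither of these overlapped between groups. Rpl36a was 332, 286, 267 and 276 CPM and 245, 256, 249 and 266 CPM, a log2 fold change of -0.18 ± 0.06 (adjusted p = 0.0471). Rpl30, which binds its own message in yeast, was 715, 662, 609 and 634 CPM and 564, 595, 579 and 599 CPM, a log2 fold change of -0.15 ± 0.05 (adjusted p = 0.0444). Rpl36 had the lowest fold change, -0.21 ± 0.07 (adjusted p = 0.0472), but its groups overlapped, with 451, 385, 345 and 361 CPM against 316, 324, 329 and 352 CPM. In all 7 the first DMSO library was the highest of the 8.

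All 7 are short proteins, a feature that was looked at after their values were seen. Among the 77 main copies sorted by coding length, the shortest 26, of 25 to 135 codons, held all 7 calls and had a median log2 fold change of -0.16. The middle 26 had a median of -0.14 and the longest 25, of 194 to 419 codons, a median of -0.12. At day 4 the same lengths gave medians of -0.11, -0.09 and -0.10.

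The count of 7 at day 2 rested on single libraries. Without DMSO replicate 3 it was 39 and without DMSO replicate 4 it was 20, but without DMSO replicate 2, or without 4OHT replicate 1, 2 or 3, it was 0. Without DMSO replicate 1 it was 3, and the median fold change was -0.07 in place of -0.14. No leave-one-out fit turned the sign of the median. Over all genes, 2269 of 15897 fell in the full fit, 2321 of 16017 without DMSO replicate 3 and 2547 of 16010 without DMSO replicate 4. Without DMSO replicate 1, 1943 of 16138 fell. In the fits that called 0 members, 1660 to 2121 genes fell.

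**Figure D3:**
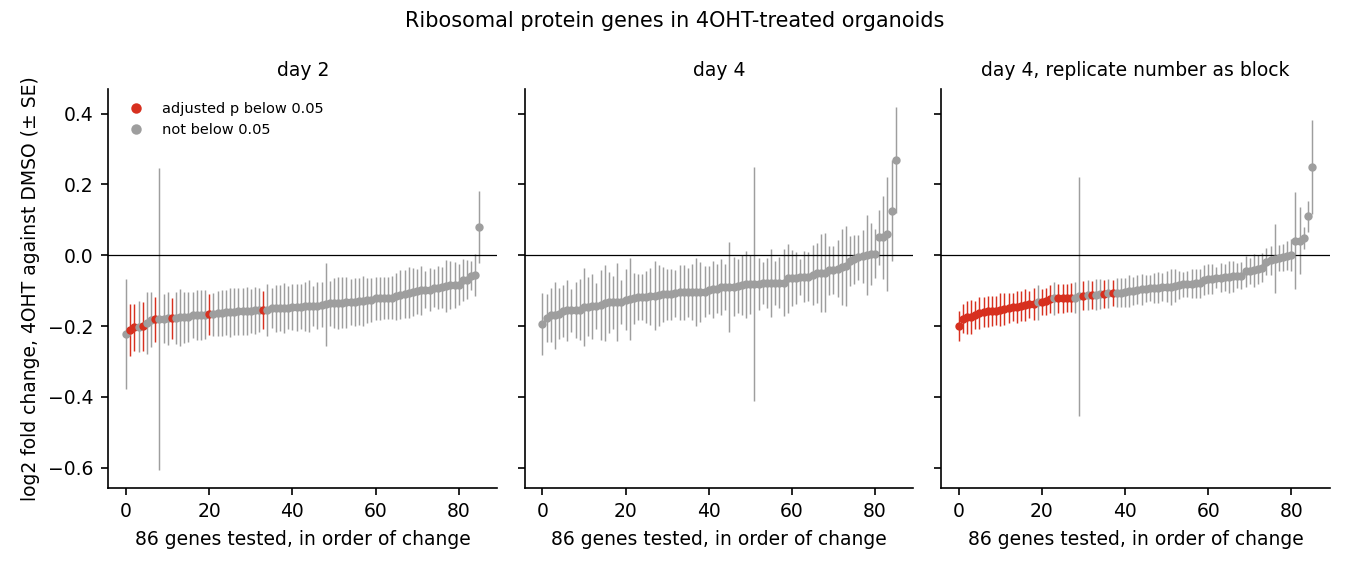
Log2 fold change with 4OHT against DMSO for the 86 genes tested, each panel in its own order of change, with standard errors as bars. Red points have an adjusted p below 0.05: 7 at day 2, 0 at day 4 and 30 at day 4 with replicate number as a block. The gene with the longest bar in each panel is the retrocopy Rps12l1 at 0.123 CPM.

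At day 4 most fold changes were again negative, and none passed the test without the block. Of the 86 genes tested, 0 fell and 0 rose with the edgeR test, against 11.1% and 13.7% of all genes. An unadjusted p below 0.05 was reached by 4 members, all lower, and DESeq2 called 2 lower. The median fold change was -0.09 (log2), against -0.0070 over all genes, and 78 of 86 values were negative. Groups overlapped for all 86 genes, whereas 13.5% of all genes were lower and 14.6% higher without overlap. At this day the replicate numbers pair the libraries, since same-numbered DMSO and 4OHT libraries deviated together from their group means. With the number as a block, 30 members fell and 0 rose, where 22.2% of all genes fell and 22.8% rose. All 30 are main copies.

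The differences between same-numbered day 4 libraries were uneven. In the pair numbered 1, all 77 main copies were lower with 4OHT, with a median difference of -0.20 (log2). The pair numbered 2 had 73 lower and a median of -0.11, and the pair numbered 3 had 76 lower and a median of -0.11. In the pair numbered 4, 45 were lower and 32 higher, with a median of -0.0063. Without 4OHT replicate 4 the unblocked fit called 7 members lower.

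With the block, Rpl5 had the lowest fold change at day 4. Rpl5 carries the 5S ribosomal RNA into the ribosome together with Rpl11 and binds MDM2. It was 996, 886, 1063 and 1047 CPM with DMSO and 822, 762, 909 and 987 CPM with 4OHT, lower in each same-numbered pair, with a blocked log2 fold change of -0.20 ± 0.04 (adjusted p = 0.00299) against -0.19 ± 0.09 (adjusted p = 0.133) without the block. Rps29, a small zinc-binding protein of the small subunit, was 506, 458, 523 and 507 CPM and 423, 402, 448 and 486 CPM, a blocked log2 fold change of -0.18 ± 0.04 (adjusted p = 0.00438). Rps28, a neighbour of the messenger RNA exit, was 469, 432, 477 and 472 CPM and 385, 365, 425 and 468 CPM, a blocked log2 fold change of -0.18 ± 0.05 (adjusted p = 0.0127). For both, the second 4OHT library was the lowest of the 8 and the groups overlapped. Rpl39, at the exit of the nascent chain tunnel, was 337, 294, 360.3 and 348 CPM and 271, 259, 315 and 344 CPM, a blocked log2 fold change of -0.18 ± 0.05 (adjusted p = 0.0129). Rpl36a, one of the 7 of day 2, was 363, 317, 359 and 354 CPM and 303, 275, 320.3 and 342 CPM, a blocked log2 fold change of -0.17 ± 0.04 (adjusted p = 0.00586). Rps6, the substrate of the S6 kinases downstream of mTORC1, had -0.16 ± 0.04 (adjusted p = 0.00947). Of the 7 genes of day 2, Rpl30, Rps27, Rpl34, Rps20 and Rpl22 also fell in the blocked fit, and Rpl36 did not, at -0.11 ± 0.04 (adjusted p = 0.0673).

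The stalk proteins, which recruit the translation GTPases, did not pass the test in either treatment comparison. Rplp0, Rplp1 and Rplp2 had log2 fold changes of -0.11, -0.16 and -0.14 at day 2, and of -0.06, -0.09 and -0.09 at day 4, with standard errors of 0.07 to 0.08. Rplp0 was 2808, 2416, 2197 and 2242 CPM in the DMSO and 2208, 2209, 2190.0 and 2306 CPM in the 4OHT libraries of day 2. These values overlapped, and the stalk genes stood within the range of the other main copies. Of the 8 members listed as binding MDM2, 0 passed the test at either day without the block, and 4 (Rpl5, Rpl23, Rps3 and Rps7) fell at day 4 with it, where 22.2% of all genes fell in that fit. Rpl11 had log2 fold changes of -0.12 and -0.04 at the 2 days, Rpl26 of -0.14 and -0.07, and Rps14 of -0.18 and -0.08. Rps27l had -0.06 and 0.13, the latter the 1 positive value of the list at day 4, and 0.11 ± 0.04 (adjusted p = 0.0624) there with the block. Mdm2 itself rose by 0.35 at day 2 and 0.35 at day 4, and Trp53, the gene of p53, fell by 0.20 and 0.26.

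Whether the response to 4OHT differed between the days was tested directly, as the day by treatment interaction over all 16 libraries. Of the 86 members, 0 passed in either direction with edgeR, against 1.2% of all genes higher and 0.476% lower. An unadjusted p below 0.05 was reached by 1 member, the retrocopy Rps27rt, and DESeq2 called 0. The median interaction was 0.06 (log2), with 79 values positive, and it turned to -0.02 without DMSO day 2 replicate 1 and to -0.0047 without 4OHT day 4 replicate 4. A difference between the days was not detectable for these genes with 4 libraries a group.

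From day 2 to day 4, most fold changes of ribosomal protein genes were positive in both treatments. With DMSO, 25 of 86 members rose and 2 fell (edgeR). Over all genes 28.7% rose and 24.8% fell, so the share of members that rose was near that background. Most members are abundant, however, and of the 2349 genes with a mean of at least 100 CPM, 412 rose and 937 fell. Their median fold change was -0.08 (log2). The members that rose are all main copies and both that fell are paralogs. The median fold change was 0.16 (log2), against 0.03 over all genes, and 76 of 86 values were positive. With 4OHT, 447 of the 2349 genes with a mean of at least 100 CPM rose and 882 fell. Of the 86 members, 49 rose and 1 fell with 4OHT, where 25.9% of all genes rose and 23.5% fell. The median was 0.21, against 0.01 over all genes, with 80 values positive, and the groups did not overlap for 46 genes, 45 higher and 1 lower at day 4, where 23.6% of all genes were higher and 22.2% lower without overlap. With DMSO only 3 genes did not overlap, 1 higher and 2 lower, where 24.9% of all genes were higher and 23.5% lower without overlap. Summed markers of crypt base stem cells, enterocytes, Paneth, enteroendocrine and tuft cells were also higher at day 4, without overlap in either treatment. The low sums of stromal markers were too, while goblet cell sums overlapped between the days. Of the 12 enterocyte markers, 8 rose and 3 fell with DMSO, and 9 rose and 2 fell with 4OHT. The part of these cell types in the values of the ribosomal proteins was not tested. The days were deposited as separate tables, and whether their libraries were prepared together is not given, so time and any difference in preparation cannot be told apart.

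Rpl17, a protein at the tunnel exit of the large subunit, had the highest value with DMSO. It was 854, 739.6, 699 and 709 CPM at day 2 and 907, 826, 1035 and 1018 CPM at day 4, and the highest day 2 library, the first, lay above the lowest day 4 library. Its log2 fold change was 0.34 ± 0.08 (adjusted p = 0.00375). With 4OHT it was 633, 649, 672 and 713 CPM and then 757, 736, 908 and 1015 CPM without overlap, a log2 fold change of 0.35 ± 0.09 (adjusted p = 0.01). Rps4x, a small subunit protein encoded on the X chromosome, was 1513, 1309.9, 1230.4 and 1257 CPM and then 1662, 1496, 1688 and 1673 CPM with DMSO, a log2 fold change of 0.30 ± 0.07 (adjusted p = 0.00397). With 4OHT it went from 1202, 1212, 1186 and 1223 CPM to 1445, 1375, 1476 and 1600.3 CPM, a log2 fold change of 0.29 ± 0.05 (adjusted p = 0.00147). Rpl22 rose by 0.29 ± 0.07 (adjusted p = 0.00396) with DMSO and by 0.36 ± 0.06 (adjusted p = 0.00103) with 4OHT. Rpl4 was the member whose DMSO groups did not overlap upward: 2121, 1982, 1820.2 and 1868 CPM at day 2 and 2399, 2156, 2341 and 2362 CPM at day 4, a log2 fold change of 0.25 ± 0.07 (adjusted p = 0.00594). Rpl5 rose by 0.30 and 0.25, Rpl32 by 0.27 and 0.33, and the stalk base Rplp0 by 0.24 and 0.28 with DMSO and 4OHT. The DMSO call of Rplp0 (adjusted p = 0.0288) was lost in most leave-one-out fits, at adjusted p of 0.0596 to 0.123. That of Rpl32 was lost in some, at up to 0.0607. Rplp1 and Rplp2 rose with 4OHT, by 0.19 and 0.20, and had 0.12 and 0.15 with DMSO. The abundant Rps2 and Rpl8 did not pass the test: Rps2 had -0.05 ± 0.08 (adjusted p = 0.637) with DMSO and 0.06 ± 0.06 (adjusted p = 0.487) with 4OHT, and Rpl8 0.03 ± 0.08 (adjusted p = 0.767) and 0.09 ± 0.06 (adjusted p = 0.241).

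The DMSO count depended on the first day 2 library, which was high for all 77 main copies. Without it 62 members rose, and without DMSO day 2 replicate 3 only 8 did. Over all genes, 4462 of 16369 and 4191 of 16296 rose in these fits, against 4616 of 16088 in the full fit. With 4OHT the member count lay between 31 and 62 over the leave-one-out fits. In the fits at these ends, 3698 of 16172 and 4006 of 16138 genes rose. With libraries scaled by their totals alone, 50 members rose with DMSO in place of 25. All genes moved too, with 5099 rising and 3498 falling in place of 4616 and 3989.

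Of the paralogs, Rps27l and Rpl7l1 fell over time with DMSO and Rpl7l1 fell with 4OHT. Rps27l, which differs from Rps27 at a few residues and is a known target of p53, was 165, 151, 148 and 155 CPM at day 2 and 96.0, 99.2, 119 and 126 CPM at day 4 with DMSO. All day 4 libraries lay below all day 2 libraries, and its log2 fold change was -0.49 ± 0.08 (adjusted p = 0.0002), while Rps27 rose by 0.26 ± 0.08 (adjusted p = 0.0176). The Rps27 groups overlapped. Its call was lost without DMSO day 2 replicate 3 or 4 and without DMSO day 4 replicate 3 or 4, at adjusted p of 0.0536 to 0.0801. With 4OHT, Rps27l was 131, 145, 158 and 156 CPM and then 95.5, 102, 133 and 148 CPM. These groups overlapped and the value of -0.30 ± 0.13 (adjusted p = 0.0815) did not pass the test. It passed with the replicate block at -0.32 ± 0.07 (adjusted p = 0.00688), with DESeq2 (adjusted p = 0.037), with all 16 libraries in the fit (adjusted p = 0.0396) and without 4OHT day 4 replicate 4 at -0.42 ± 0.11 (adjusted p = 0.0114). The 2 genes thus moved apart with DMSO, but a difference between the treatments was not shown, since the interaction for Rps27l was 0.19 ± 0.17 (adjusted p = 0.604).

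Rpl7l1, a relative of Rpl7, was 142, 138, 137 and 142 CPM and then 114, 112, 118 and 125 CPM with DMSO, a log2 fold change of -0.25 ± 0.05 (adjusted p = 0.00056). With 4OHT it went from 126, 135, 137 and 136 CPM to 105, 109.7, 116 and 117 CPM, a log2 fold change of -0.26 ± 0.05 (adjusted p = 0.00176). Neither comparison overlapped. Rpl7 had 0.12 ± 0.08 (adjusted p = 0.236) and 0.16 ± 0.07 (adjusted p = 0.0611), and neither value passed the test. Rpl22l1, which can take the place of Rpl22, had -0.17 ± 0.08 (adjusted p = 0.105) and -0.07 ± 0.10 (adjusted p = 0.592), not past the test, where Rpl22 rose in both. Rpl36al had -0.15 ± 0.07 (adjusted p = 0.0975) and -0.01 ± 0.06 (adjusted p = 0.905), not past the test, where Rpl36a rose by 0.27 and 0.29. With DMSO, Rpl22l1 passed without day 2 replicate 3, at -0.22 ± 0.09 (adjusted p = 0.0491), and Rpl36al without day 2 replicate 4, at -0.21 ± 0.08 (adjusted p = 0.0387). In the treatment comparisons none of the paralogs or retrocopies tested passed at either day, and Rpl22l1 passed at day 2 without DMSO replicate 3, at -0.20 ± 0.07 (adjusted p = 0.0436). Of the retrocopies, Rps27rt rose with 4OHT by 0.81 ± 0.17 (adjusted p = 0.00278) at 2.03 CPM, and Rps3a2 by 0.37 ± 0.14 (adjusted p = 0.0436) at 4.07 CPM, a call that 7 of the other settings lost. Reads shared with Rps27 and Rps3a1 make both uncertain.

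**Figure D4:**
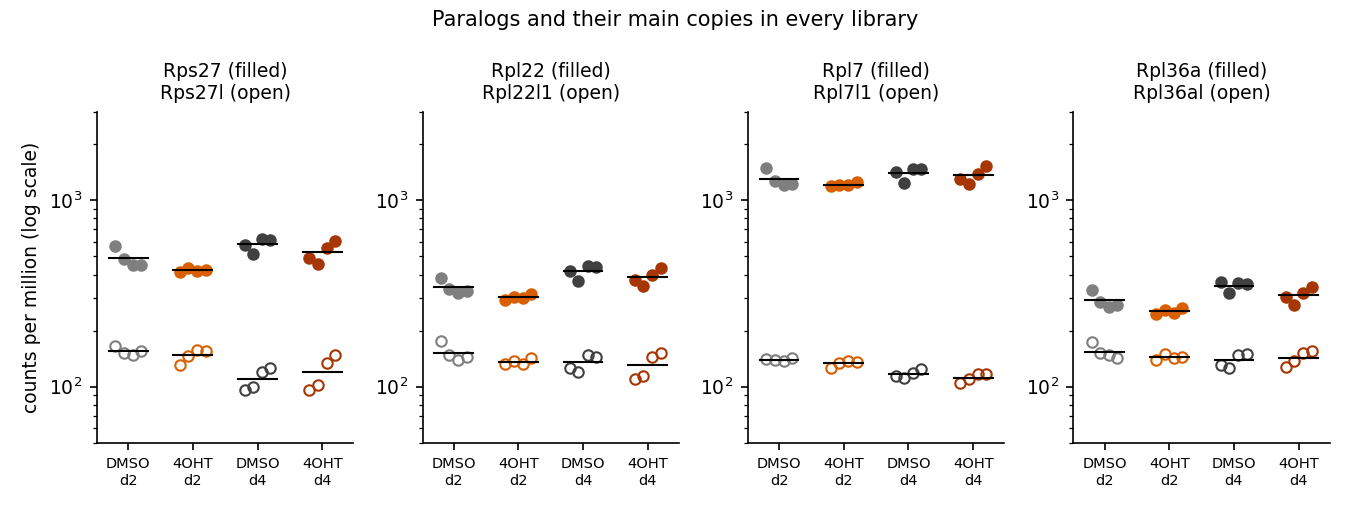
CPM values, on a log scale, of 4 paralogs (open) and their main copies (filled) in every library, with group means as lines. Rps27l and Rpl7l1 are lower at day 4 than at day 2 with DMSO, where the mean of Rps27 is higher.

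Among other genes that make or use ribosomes, more fell than rose between the days, in lists whose counts stand beside 28.7% of all genes that rose and 24.8% that fell with DMSO, and 25.9% and 23.5% with 4OHT. More also fell than rose among the 2349 genes with a mean of at least 100 CPM, as given above. Of 106 ribosome biogenesis factors tested, 52 fell and 1 rose with DMSO between the days, and 85 fell and 1 rose with 4OHT, with medians of -0.15 and -0.26 (log2). Bop1, a factor of large subunit maturation, had -0.54 ± 0.05 and -0.57 ± 0.05. The abundant nucleolar genes Npm1 and Ncl did not pass the test, with Npm1 at 0.01 ± 0.06 and -0.03 ± 0.06. Of 80 mitochondrial ribosomal proteins, which serve the separate ribosome of the mitochondrion, 59 fell and 2 rose with DMSO, and 50 fell and 3 rose with 4OHT. Of 36 initiation factors, 18 fell and 4 rose with DMSO, and 23 fell and 5 rose with 4OHT. Eif6, which keeps the subunits apart, fell by 0.44 and 0.36. Among other messages with a known TOP tract, more rose than fell: of 23, 11 rose and 2 fell with DMSO, and 11 rose and 3 fell with 4OHT. Pabpc1, the poly(A)-binding protein, rose by 0.49 ± 0.07 and 0.48 ± 0.06, and the elongation factors Eef1a1 and Eef2 by 0.27 ± 0.08 and 0.25 ± 0.07 with DMSO. Of the 12 elongation and release factors tested, however, 8 fell and 3 rose with DMSO, and 7 fell and 3 rose with 4OHT. The lists overlap, since Pabpc1, Eif4b and the elongation factors are in more than one.

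**Figure D5:**
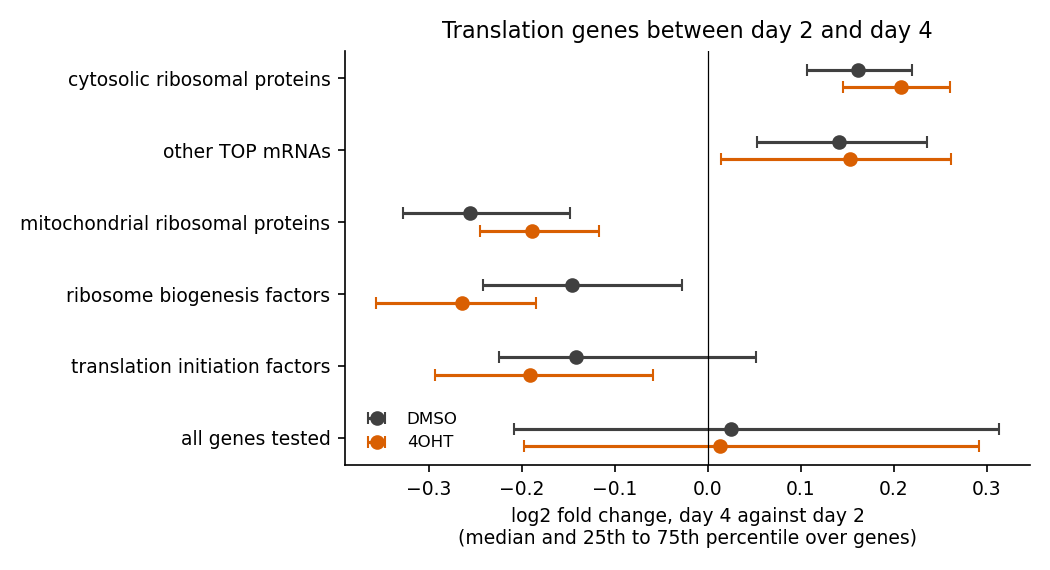
Median and 25th to 75th percentile over genes of the log2 fold change from day 2 to day 4, with DMSO and with 4OHT, for ribosomal proteins and other lists of translation genes. Ribosomal proteins, at medians of 0.16 and 0.21, and other TOP messages, at 0.14 and 0.15, lie above 0, and the biogenesis factors, at -0.15 and -0.26, below it.

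Fau and Rack1 also encode ribosomal proteins, under symbols outside the rule. Fau, whose product is cleaved to give a small subunit protein, was 771, 652, 600.0 and 603 CPM at day 2 and 743, 685, 804 and 807 CPM at day 4 with DMSO, a rise of 0.22 ± 0.08, and rose by 0.38 ± 0.08 with 4OHT. Rack1, a scaffold on the small subunit, rose by 0.23 ± 0.07 and 0.22 ± 0.06. Neither passed the test in the treatment comparisons, at -0.18 and -0.11 on day 2 and -0.02 and -0.12 on day 4, but Rack1 fell at day 4 with the block, at -0.12 ± 0.04 (adjusted p = 0.0439).

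In the treatment comparisons, the other lists had these counts, for which a difference from the ribosomal proteins was not tested. Over all genes tested, 14.3% fell and 16.9% rose at day 2, 11.1% fell and 13.7% rose at day 4, and 22.2% fell and 22.8% rose at day 4 with the block. Mitochondrial ribosomal proteins fell in 21 of 80 genes at day 2 and 8 at day 4, and rose in 0 at either day, and with the block 24 fell and 1 rose at day 4. Biogenesis factors fell in 6 and rose in 3 of 106 at day 2, and fell in 20 and rose in 1 at day 4, or 63 and 3 with the block. Fibrillarin (Fbl), the methylase of ribosomal RNA, had -0.29 ± 0.05 at day 4. Of 40 cell cycle genes, 11 fell at day 2 and 35 at day 4 (38 with the block), and 0 rose. Of 28 p53 targets, 19 rose and 2 fell at day 2, and 17 rose and 0 fell at day 4, or 20 and 1 with the block. Of 15 genes of RNA polymerase I transcription, 2 rose and 1 fell at day 2 and 2 fell at day 4, or 6 with the block. Of 26 genes of the mTORC1 pathway, 2 rose and 3 fell at day 2 and 1 rose and 2 fell at day 4, or 3 and 6 with the block. Of 23 other TOP messages, 1 rose and 2 fell at day 2, Eef1b2 by 0.21 among the latter, and 1 fell at day 4, or 6 with the block. Myc, a known activator of ribosome biogenesis genes, was 223, 221, 219 and 223 CPM with DMSO and 188, 180.0, 174 and 192 CPM with 4OHT at day 4, without overlap, a log2 fold change of -0.27 ± 0.04, and had -0.0036 ± 0.06 at day 2. The part of these genes in the values of the ribosomal proteins was not tested.

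In the authors' deposited table, which gives its own adjusted p-values, 11 members were lower and 0 higher at day 2 by edgeR at a threshold of 0.05, and 0 by DESeq. At day 4 it lists 0 in either direction by either tool. The share of all genes called by these deposited p-values was not counted, so the 11 cannot be read against a background.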

How the data were processed

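The authors deposited, for each day, a table of raw read counts per gene for 8 libraries with normalized values, log2 fold changes and p-values, per the file headers. The deposited tables also hold normalized score columns that the authors made by a step the headers do not describe, and these were not used. The log2 values and adjusted p-values of the deposited table were read to count the authors' own calls. Reads were aligned with STAR 2.4.0f1 to GRCm38 after bcl2fastq 1.8.4, per the submitters' processing notes. No source used here names the counting tool, the annotation or the strand option. Libraries were poly(A)-selected and directional, per the labels' protocols. Each table lists genes with at least 10 counts over its 8 libraries, so absent genes may have fewer.

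Counts were fitted with edgeR 4.0.16 in R 4.3.3 (robust quasi-likelihood test after filterByExpr and TMM scaling, Benjamini-Hochberg adjustment over all genes tested, threshold 0.05), for each day, for time within each treatment over genes in both tables, and for the interaction over 16 libraries. The comparisons share libraries and are not independent of each other. CPM are TMM-scaled over 16 libraries, and deviations use log2 of CPM plus 0.5. DESeq2 1.42.0 was an alternative, and the others were scalings, filters, a block, a stricter threshold and leaving out each replicate. Scripts were tested on simulated data. No pair of replicates agreed within sampling noise (chi-square per degree of freedom 7.99 to 128).

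Replicate numbers come from the sample titles. Deviations of same-numbered libraries correlated at 0.639 to 0.807 at day 4, where the numbers were taken to pair the libraries. At day 2 they ran from -0.113 to 0.475.

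The genes and lists were chosen with earlier results of these data known. Every member could be named. Values are given for up to 5 called members with the largest change in each direction, the 5 most abundant, stalk, MDM2-binding and paralog genes with their main copies, and the leading genes of the other lists. Members called at day 4 only with the block were named after their values were seen. Of 9 paralogs listed, 7 are in the tables. The 11 S6 kinase and Rps19bp1 entries and 153 (day 2) and 158 (day 4) -ps entries were left out. Transcript and coding lengths come from GENCODE M21.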

Additional observations from a re-analysis of the deposited data

Results flagged for a closer look

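Among 140 groups of 4 libraries looked at, over the shares and 31 named members, 6 had 1 library whose gap to the next, divided by the group's range, was above Dixon's 95% critical value. Chance alone flags about 1 in 20 groups. In DMSO day 4, the small to large subunit ratio of replicate 1 was 0.679, against 0.688 to 0.689 in the others. Also in DMSO day 4, replicate 2 was low for Rpl3 at 1486 CPM, against 1694 to 1714 CPM, and for Rps4x at 1496 CPM, against 1662 to 1688 CPM. In DMSO day 2, replicate 1 was high for Rpl39 at 354 CPM, against 279 to 288 CPM. The same library was high for Rps4l at 0.103 CPM, against 0.0108 to 0.0240 CPM, a level of a few reads. In 4OHT day 2, replicate 4 was high for Rplp0 at 2306 CPM, against 2190.0 to 2209 CPM.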

How the results depend on the processing

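The members' median stayed negative with 4OHT at both days and positive over time at every setting, and the interaction median turned negative in 2 leave-one-out fits. Of 646 refits of 38 calls of named members, a gene counting once in each comparison, 556 kept the call, 90 lost it and 0 turned. All calls numbered 7 at day 2, 27 with DMSO over time and 50 with 4OHT over time. Those outside the 38, such as Rpl30 at day 2, are not in this tally. Members that fell at day 2 numbered 7, and 11 with DESeq2, 16 with library totals, 1 with the replicate block, 0 at an adjusted p below 0.01, 1 with all 16 libraries in the fit and 0 to 39 leaving out a replicate. At day 4, 0 fell, and 2 with DESeq2, 2 with library totals, 30 with the replicate block and 0 to 7 leaving out a replicate. With DMSO over time 25 rose, and 50 with library totals, 8 below 0.01 and 8 to 62 leaving out a replicate, while 2 to 3 fell. Library totals also moved the calls over all genes. Falls at day 2 went from 2269 to 2648, and rises with DMSO over time from 4616 to 5099. With 4OHT 49 rose, and 20 below 0.01 and 31 to 62 leaving out a replicate. There 1 fell, and 2 with DESeq2, the replicate block or all 16 libraries, and 1 to 2 leaving out a replicate; Rps27l joined Rpl7l1 with the block. For the interaction, 0 passed at all settings. The cause was not tested, except that the stricter threshold calls fewer genes by construction. Over time the same-numbered libraries correlated at 0.0658 to 0.182 (DMSO) and -0.223 to 0.390 (4OHT), so the numbers do not pair them; the replicate block gave 22 rises with DMSO and 53 with 4OHT, and changed no count beyond those given above by over 1.5 times. Without the 100 most abundant other genes in the total, the mean shares were 7.30%, 6.56%, 8.42% and 7.83% in DMSO day 2, 4OHT day 2, DMSO day 4 and 4OHT day 4. With 4 libraries a group, changes of about 10% in single members lie near what these tests can separate.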
